A study of Mus musculus with 7 samples.

Results

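Ribosome biogenesis genes and the MYC family were followed in mouse extrahepatic bile ducts (EHBDs) after obstruction. The 45 genes were chosen by name and function from 56065 genes of the count table: 4 MYC family genes and 41 genes of RNA polymerase I, the nucleolus, the small nucleolar ribonucleoproteins (snoRNPs) and the processing of the small and large ribosomal subunits. All 45 were found by their Ensembl identifiers, on 19 chromosomes, and all passed the filter on low counts, with 127 counts as the lowest value of any member in any library. Whole EHBDs came from adult wild-type C57BL/6J mice of both sexes whose exact age is not given in the sources used here. In the 4 BDL samples (bile duct ligation; 2 females and 2 males) the distal duct had been tied near the duodenum. The 3 sham samples (1 female and 2 males) had the laparotomy without the tie. Ducts of both groups were taken 48 hours after surgery, and the model is one of acute, complete obstruction. The study counts its replicates as mice, although GEO's labels do not number the animals.

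The nucleolus is where a ribosome is begun. RNA polymerase I copies the ribosomal DNA into a long precursor RNA, snoRNPs methylate and isomerise chosen bases of it, and large protein assemblies cut and fold it into the RNAs of the small and large subunits. The transcription factor MYC, which binds DNA as a dimer with MAX at E-box sequences, is a general regulator of this programme and is known for driving growth before cells divide. Libraries were made from polyadenylated RNA, so the ribosomal RNA precursor itself was not measured: the values below are levels of the messenger RNAs of the machinery.

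Library totals ranged from 48882420 to 61291821 counts. Messenger RNAs of neighbouring tissues differed between libraries. The 16 pancreatic acinar markers together held 4.69% to 20.5% of counts in sham and 0.00227% to 5.03% in BDL, with 4 of the 16 at 0 in BDL 4. The 12 hepatocyte markers held 0.0247% to 0.123% in sham but 1.49% and 4.82% in BDL 1 and BDL 4, with 1 marker at 0 in BDL 3. The 10 biliary epithelial markers were detected in every library and rose in share from 0.349% to 0.819% in sham to 1.25% to 1.64% in BDL. The 10 fibroblast markers went from 0.316% to 1.02% in sham to 1.13% to 1.33% in BDL, and the 20 genes of the G2 and M phases of the cell cycle, all 20 called higher, from 0.00157% to 0.00945% in sham to 0.184% to 0.213% in BDL. Of the 10 leukocyte markers 6 were called lower and 1 higher (median log2 fold change -1.67), and their share was 0.0143% to 0.0545% in sham and 0.0135% to 0.0245% in BDL. The part of these shifts in the results below was not tested, apart from the values given without the acinar and hepatocyte markers or without libraries. In whole tissue, more cells of a type and more RNA per cell cannot be told apart.

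Of the 45 genes, 31 (68.9%) were higher in BDL than in sham at an adjusted p under 0.05 (edgeR quasi-likelihood F test with sex as a covariate, adjusted over 25209 genes by Benjamini-Hochberg; these are the genes said below to have risen). Over all tested genes 11.8% rose. None of the 45 fell, against 11.0% of all tested genes, and 0 had an unadjusted p under 0.05 in that direction. The remaining 14 were not called, 10 of them with a positive and 4 with a negative log2 fold change. The median log2 fold change was 0.94 over the 45 genes, against -0.01 over all tested genes. Most members are well expressed, and among the 10176 genes with a mean of at least 10 CPM (counts scaled to library size) the median was 0.20 and the percentage called higher 23.1%. Every BDL library lay above every sham library in 33 of the 45 genes, which holds for 18.7% of all tested genes and for 31.1% of those with at least 10 CPM. In 17 members the rise was over 2-fold.

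**Figure D1:**
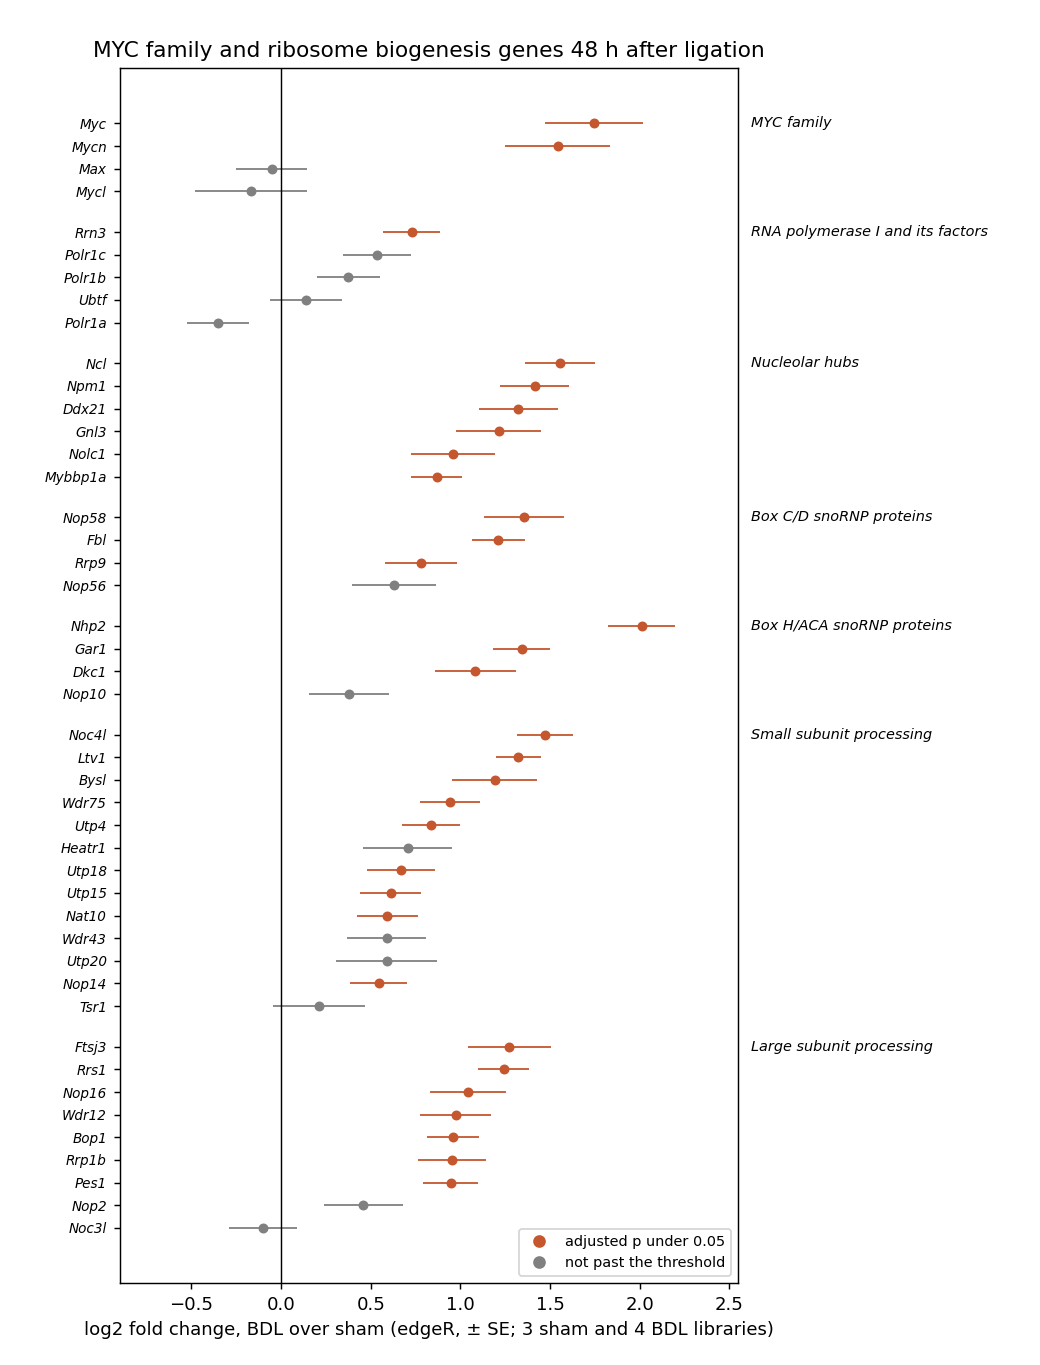
Log2 fold change of BDL over sham for the 45 genes (points, with the standard error as bars), grouped by role; red marks the 31 genes with an adjusted p under 0.05 and grey the 14 others. Values ran from -0.35 for Polr1a to 2.01 for Nhp2, and all 6 nucleolar hub genes were called.

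Summed, the 45 genes took a larger part of the library after ligation. They held 0.163%, 0.185% and 0.0869% of all counts in sham 1, 2 and 3 and 0.354%, 0.334%, 0.260% and 0.357% in BDL 1 to 4. The lowest BDL library thus stood above the highest sham library. The mean share was 0.145% ± 0.0516 (SD, n = 3) in sham and 0.326% ± 0.0453 (SD, n = 4) in BDL, a ratio of 2.25 (two-sided exact permutation p = 0.0286, the smallest that 35 splits allow). With the acinar and hepatocyte markers left out of the total the shares were 0.161% and 0.339%, again without overlap (exact permutation p = 0.0286). Only the listed markers were left out, and sham 3 remained low at 0.1095%, against 0.1797% in sham 1 and 0.1948% in sham 2. Per kilobase of merged exons, Nop10, Npm1 and Ncl had the highest levels of the 45 in both groups. In sham their levels were 47.2 ± 13.3, 21.9 ± 3.37 and 20.02 ± 1.30 CPM per kb (SD, n = 3), and in BDL 61.1 ± 8.09, 58.7 ± 3.81 and 57.7 ± 6.53 (SD, n = 4). In BDL these 3 levels per kb of merged exons differed from each other by less than their SDs. Per kb of median transcript length the same 3 were again the top 3, but Npm1 and Ncl then stood far above Nop10. Those levels in BDL were 263.5 ± 17.1, 236.8 ± 26.8 and 87.4 ± 11.6 CPM per kb (SD, n = 4).

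Within the MYC family the change was divided. Myc rose, Mycn rose from a low level, and neither Mycl nor the common partner Max passed the test. Myc, the broadly expressed member, was measured at 22.9, 22.5 and 23.0 CPM in sham 1 to 3 and at 64.1, 79.3, 54.2 and 114.8 CPM in BDL 1 to 4. The sham libraries were almost level, whereas the highest BDL library, BDL 4, was over 2-fold the lowest, BDL 3. The log2 fold change of Myc was 1.75 (SE 0.27, edgeR adjusted p = 0.00494). Mycn, known mainly from neural and embryonic tissue, stood at 3.41, 4.10 and 3.41 CPM in sham and at 12.5, 13.6, 5.56 and 9.89 CPM in BDL (log2 fold change 1.54, SE 0.29, adjusted p = 0.0101). BDL 3 was again the lowest ligated library but remained above all sham libraries. An antisense long non-coding gene, Gm59473, overlaps 16.2% of the Mycn exon bases, and without strand its reads cannot be told from those of Mycn. Mycl, the third paralogue, gave 10.8, 12.1 and 8.02 CPM in sham and 12.8, 10.1, 4.85 and 8.61 CPM in BDL. These groups overlapped (log2 fold change -0.17, SE 0.31, adjusted p = 0.732). Max, which every MYC protein needs in order to bind DNA, had 45.3, 49.1 and 42.04 CPM in sham and 36.2, 51.4, 52.6 and 34.98 CPM in BDL (log2 fold change -0.05, SE 0.20, adjusted p = 0.872). Both the highest and the lowest Max values belonged to the ligated group.

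**Figure D2:**
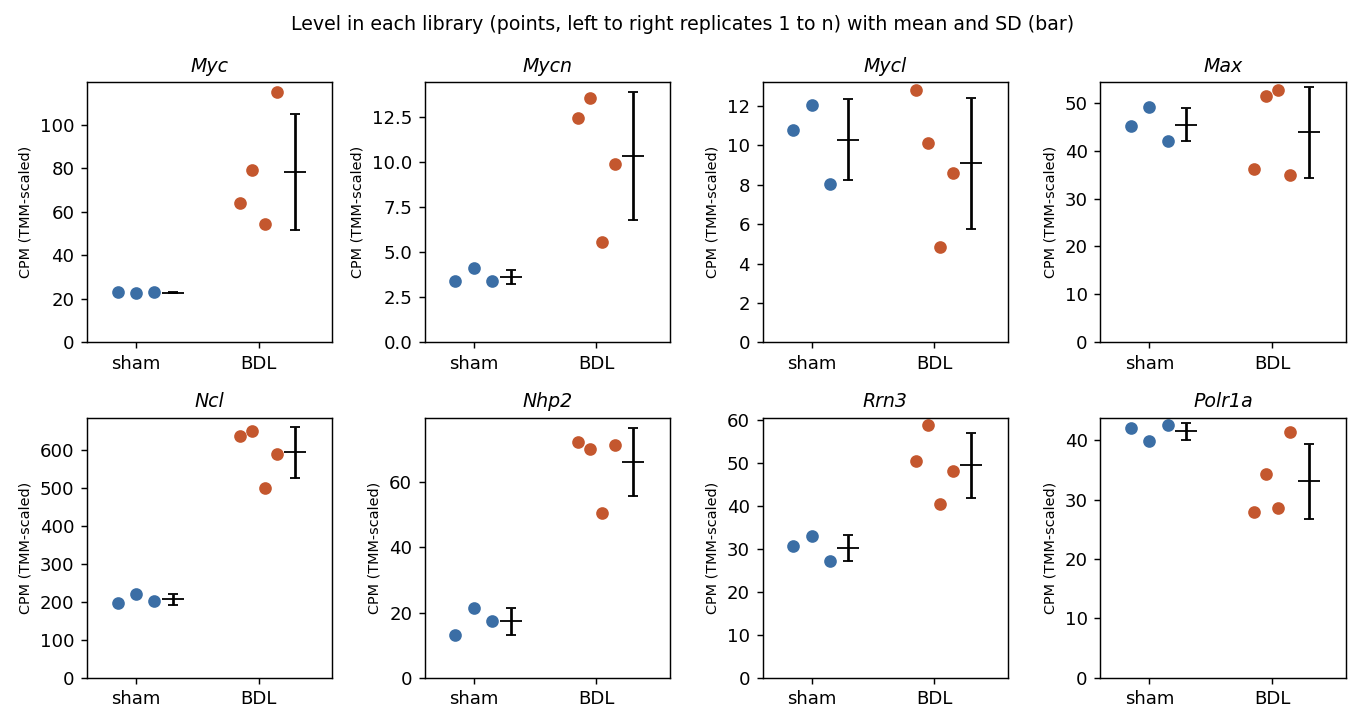
Level in every library (points, in CPM with TMM-scaled library sizes, replicates from left to right) with the group mean and SD (bar) for the 4 MYC family genes, for Ncl and Nhp2, and for Rrn3 and Polr1a of the RNA polymerase I group. Myc, Mycn, Ncl, Nhp2 and Rrn3 were separated between the groups, while the points of Mycl, Max and Polr1a overlapped.

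Other genes of the wider MYC network, a list of 10 that is not limited to partners of MAX, mostly did not rise. In this list 1 gene rose (10%), 4 fell and 5 were not called (median log2 fold change -0.14). Among genes with at least 10 CPM, 23.1% rose and 11.5% fell. The riser was Mxd3, a MAX partner of the MXD repressor family, at 0.421 ± 0.274 CPM over the 3 sham libraries and 8.94 ± 2.05 CPM over the 4 BDL libraries (mean ± SD); its log2 fold change was 4.46 with an SE of 0.56 (adjusted p = 0.00237). The fallers were Mga, a large MAX partner that represses E-box genes (log2 fold change -1.14), the repressors Mxi1 (-0.64) and Mxd1 (-0.57), and the glucose-responsive activator Mlxipl (-1.74). Mga had 59.1, 51.2 and 51.7 CPM in sham and 17.4, 23.7, 26.4 and 38.8 CPM in BDL. All 4 of these genes were lower in every BDL library than in any sham library. Among 11 genes that act on MYC protein stability, 4 rose (36.4%) and none fell. Among the risers were the kinase Aurka (log2 fold change 4.79), which is also a mitotic gene, the phosphatase inhibitor Cip2a (3.84) and the ubiquitin ligase subunit Skp2 (2.05).

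The canonical E-box that MYC and MAX bind reads CACGTG, which is the same on both strands and is also recognised by USF and CLOCK-BMAL1 factors. It was searched for in GRCm39 around the start site of each gene. In the window from 250 bases before to 50 bases after the start it was found for 8 of the 45 members (17.8%), against 7.86% of 21599 protein-coding genes and 10.3% of 9998 protein-coding genes with at least 10 CPM. A wider window of 1000 bases on each side, chosen after the narrow one had been seen, held it for 30 of 45 (66.7%), against 27.9% and 32.6%. At least 2 copies were present for 15 members (33.3%), against 5.65% and 7.39%. Almost all of this difference lay downstream of the start. A copy within 1000 bases downstream was present for 60% of members and 17.8% of genes with at least 10 CPM, and a copy within 1000 bases upstream for 17.8% and 18.0%. Among narrow windows with at least 60% G and C, the motif was found for 19.0% of 21 members and 12.2% of 4379 genes with at least 10 CPM. No comparison by G and C content was made for the wide window. The wide window held the motif for 21 of the 31 members that rose (67.7%) and 9 of the 14 that were not called (64.3%), at least 2 copies for 29.0% and 42.9%, and the narrow window 1 or more for 12.9% and 28.6%. In the related lists the wide window held it for 66.7% of other small subunit genes, 50% of other large subunit genes, 70% of other MYC network genes and 90% of MYC targets outside the nucleolus. The share was 50% for RNA polymerase III, 46.2% for the RNA exosome and 45.5% for genes acting on MYC stability. It was 44.4% for nucleolar stress and p53 genes, 36.4% for other RNA polymerase I genes and 23.1% for RNA polymerase II subunits. Among the groups of members it ran from 25% of the MYC family and 40% of the RNA polymerase I group to 100% of box C/D snoRNP proteins. In genes with at least 10 CPM as a whole it was present for 36.1% of those called higher, 28.4% of those called lower and 32.1% of those not called. None of the windows of Myc, Mycn and Mycl held a copy, and Max had 2 upstream.

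**Figure D3:**
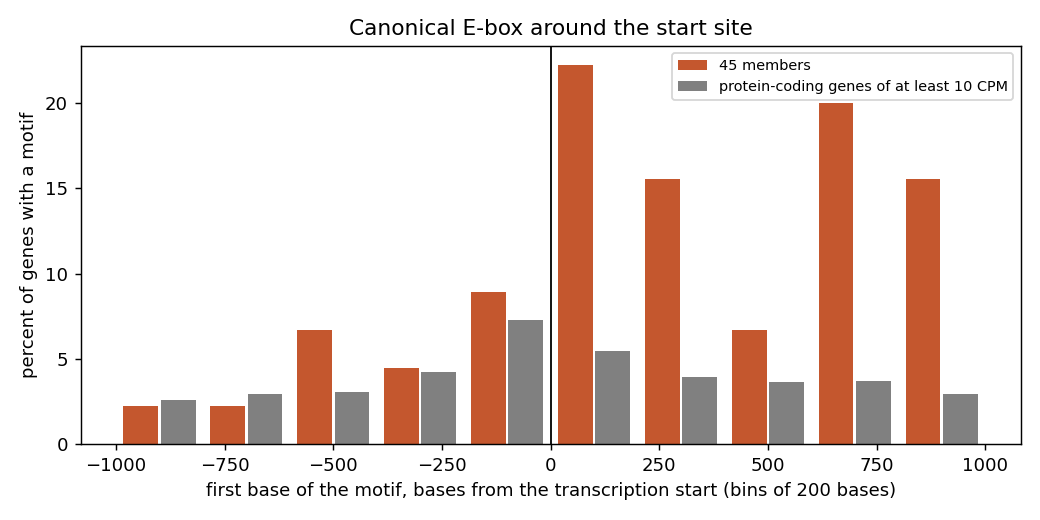
Percent of genes with a canonical E-box whose first base lies in each 200-base bin around the transcription start (negative values upstream), for the 45 members (red) and for protein-coding genes with at least 10 CPM (grey). From 0 to 200 bases downstream it was 22.2% of members and 5.48% of genes, and from 200 bases before the start to the start itself 8.89% and 7.30%.

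The stretches below show downstream copies in introns of 5 members that rose and of 1 that was not called. Introns are those of the canonical transcript, and exons of other transcripts were not checked. Fbl and Noc3l each had 2 downstream copies, of which 1 is shown. Each is written 5′ to 3′ along the gene in GRCm39, with CACGTG in capitals. Ncl had the most copies of the 45, 5 in all, of which 3 lie in the first stretch (the first at base 652 of the gene) and 2 in the second.
Ncl, chr1:86286474-86286590 (minus strand): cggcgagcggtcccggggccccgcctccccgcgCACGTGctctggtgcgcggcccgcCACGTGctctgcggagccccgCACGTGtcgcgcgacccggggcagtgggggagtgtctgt
Ncl, chr1:86286316-86286424 (minus strand): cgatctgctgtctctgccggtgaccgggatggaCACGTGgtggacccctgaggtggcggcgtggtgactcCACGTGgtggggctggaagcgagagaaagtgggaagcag
Npm1, chr11:33112339-33112421 (minus strand): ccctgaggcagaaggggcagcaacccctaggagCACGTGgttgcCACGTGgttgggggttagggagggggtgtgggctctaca
Dkc1, chrX:74140207-74140305 (plus strand): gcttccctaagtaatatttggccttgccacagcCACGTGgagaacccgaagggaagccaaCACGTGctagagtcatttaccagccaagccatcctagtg
Fbl, chr7:27869758-27869829 (plus strand): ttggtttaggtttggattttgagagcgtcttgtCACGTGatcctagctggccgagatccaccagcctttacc
Nop58, chr1:59724509-59724580 (plus strand): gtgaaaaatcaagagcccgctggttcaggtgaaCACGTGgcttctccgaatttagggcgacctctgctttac
Noc3l, chr19:38806790-38806861 (minus strand): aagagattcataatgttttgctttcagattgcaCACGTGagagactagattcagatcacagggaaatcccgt
The pairs in Npm1 and Dkc1 begin at bases 851 and 862 and at bases 781 and 808. Noc3l is shown because its messenger RNA was not called although it carries the motif. A match of these letters is a description of the sequence and not a measured binding site.

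The RNA polymerase I group moved least, with 1 of 5 genes called (20%, against 23.1% of genes with at least 10 CPM). Rrn3, the initiation factor TIF-IA that makes the polymerase competent to start, rose from 30.6, 33.04 and 27.1 CPM in sham to 50.4, 59.0, 40.4 and 48.0 CPM in BDL. The groups did not overlap (log2 fold change 0.73, SE 0.16, adjusted p = 0.0174). The call was lost without BDL 1 (adjusted p = 0.0509), without BDL 2 (0.0645) and without sham 3 (0.0596), with the direction kept. Polr1c, a subunit shared with RNA polymerase III, had 17.4, 27.1 and 18.5 CPM in sham and 28.9, 32.4, 25.7 and 31.1 CPM in BDL. The groups overlapped only because sham 2 exceeded BDL 3 (log2 fold change 0.54, SE 0.19, adjusted p = 0.0818), and without sham 2 the gene was called (adjusted p = 0.0404). Ubtf, the factor that keeps ribosomal DNA open and the most counted gene of the group, gave 80.7, 70.4 and 62.7 CPM in sham and 94.3, 94.4, 61.3 and 63.3 CPM in BDL. BDL 1 and 2 were above all sham libraries and BDL 3 and 4 were not (log2 fold change 0.14, SE 0.20, adjusted p = 0.647). The catalytic subunits went different ways without passing the test: the log2 fold change was -0.35 for Polr1a (SE 0.17, adjusted p = 0.185) and 0.37 for Polr1b (SE 0.18, adjusted p = 0.166). Polr1a was at 42.1, 39.8 and 42.6 CPM in sham and at 27.9, 34.3, 28.6 and 41.45 CPM in BDL, with only BDL 4 inside the sham range. The summed share of the 5 genes was 0.0175% ± 0.00624 in sham (SD, n = 3) and 0.0233% ± 0.00342 in BDL (SD, n = 4; two-sided exact permutation p = 0.171).

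Of 11 further RNA polymerase I genes, 4 rose (36.4%) and none fell (median log2 fold change 0.34). The subunits Polr1e (log2 fold change 0.82) and Polr1d (0.50), the selectivity factor subunit Taf1d (0.59) and Tcof1 (0.43), which couples ribosomal DNA transcription to processing, all rose by less than 2-fold. For comparison, 23.1% of genes with at least 10 CPM rose. The count was 4 of 13 for subunits of RNA polymerase II (30.8%, median log2 fold change 0.44). It was 2 of 20 for subunits and factors of RNA polymerase III (10%, median 0.31). No gene of either list fell.

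All 6 nucleolar hub genes rose (median log2 fold change 1.27), against 23.1% of genes with at least 10 CPM. Ncl, which encodes nucleolin, a major RNA-binding protein of the nucleolus, had 195, 221 and 201 CPM in sham and 635, 648, 500 and 589 CPM in BDL. The lowest ligated library was over 2-fold the highest sham library (log2 fold change 1.56, SE 0.19, adjusted p = 0.00226). Npm1, encoding nucleophosmin, a chaperone of late pre-ribosomes, went from 124, 143 and 105 CPM to 315, 332, 320 and 363 CPM (log2 fold change 1.41, SE 0.19, adjusted p = 0.003). Its BDL libraries were the closest together of the 6 hubs relative to their mean, at 333 ± 21.6 CPM (SD, n = 4). The helicase Ddx21, which works with both RNA polymerases I and II, had a log2 fold change of 1.32 (SE 0.22), and the GTPase nucleostemin, Gnl3, of 1.21 (SE 0.24). Nolc1, a chaperone of snoRNPs, had 0.96 (SE 0.23), and Mybbp1a, a nucleolar regulator of rRNA synthesis, 0.87 (SE 0.14). The adjusted p of these 4 ranged from 0.0061 to 0.025. Gnl3 lost its call without sham 1 (adjusted p = 0.0601), and Nolc1 without any single library apart from BDL 3 or BDL 4 (adjusted p from 0.0607 to 0.0889). The hubs alone held 0.0467% of counts in sham and 0.135% in BDL (exact permutation p = 0.0286).

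**Figure D4:**
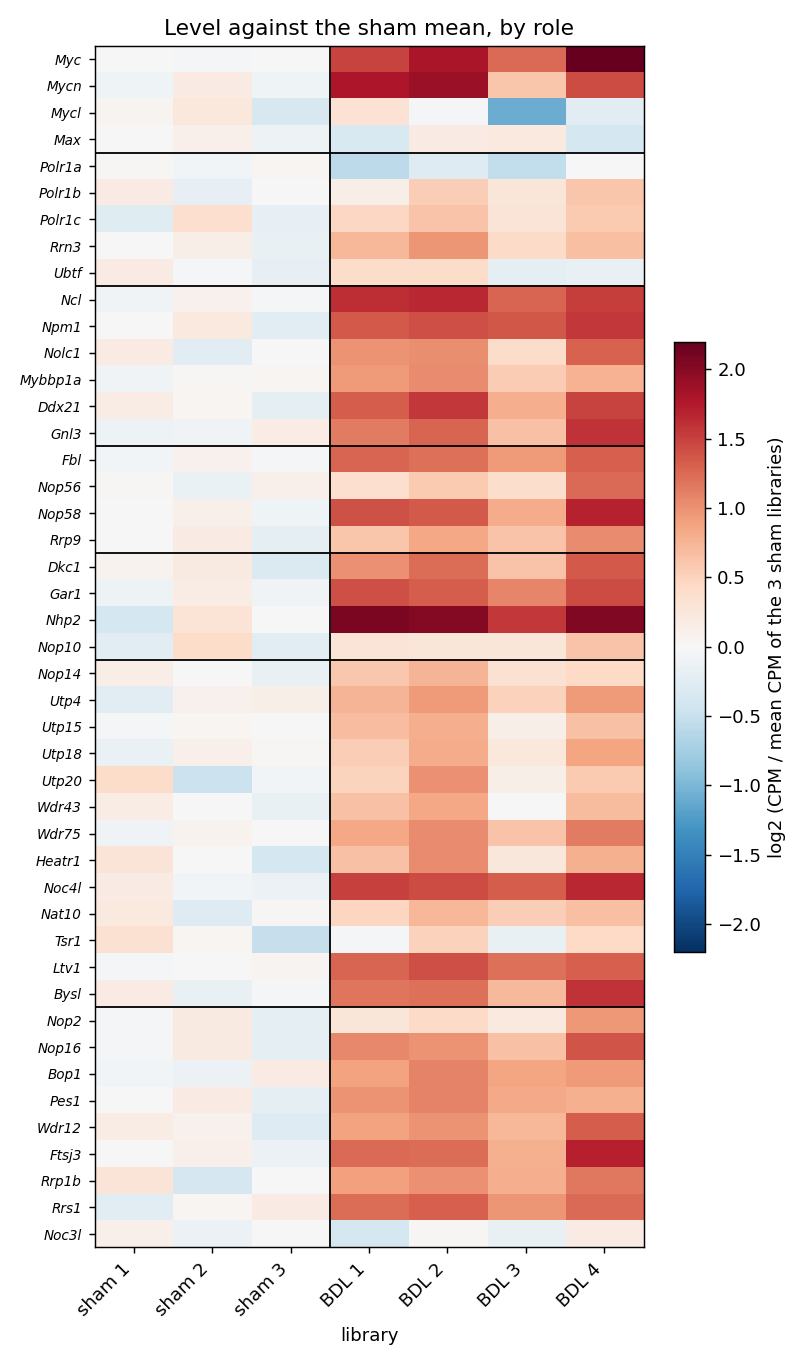
Level of each of the 45 genes in each library, as log2 of its CPM over the mean CPM of the 3 sham libraries; black lines separate the roles and the groups, and the order of roles is that of the plot of fold changes. The hub, snoRNP and subunit processing genes were mostly red across BDL 1 to 4 and palest in BDL 3, which was the lowest ligated library in 36 of 45 genes.

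Among proteins of the box C/D snoRNPs, which direct methylation of ribose in rRNA, 3 of 4 genes rose. That is 75%, against 23.1% of genes with at least 10 CPM. Fbl encodes fibrillarin, the methyltransferase, and had 30.0, 33.4 and 30.4 CPM in sham and 76.0, 72.2, 59.9 and 78.2 CPM in BDL. The sham libraries lay close together and far below BDL (log2 fold change 1.21, SE 0.15, adjusted p = 0.00199). Nop58, a core scaffold protein, went from 33.3, 36.35 and 31.4 CPM to 88.9, 86.0, 59.6 and 109 CPM (log2 fold change 1.36, SE 0.22, adjusted p = 0.00611). Its partner in the same particle, Nop56, was not called: it had 47.9, 42.8 and 50.7 CPM in sham and 60.6, 70.3, 61.9 and 112 CPM in BDL. Every BDL library was above every sham library, but BDL 4 stood far above the rest (log2 fold change 0.63, SE 0.23, adjusted p = 0.0929). Rrp9, the protein of the U3 snoRNP, rose by 0.78 on the log2 scale (SE 0.20, adjusted p = 0.0314). The Rrp9 call was lost without BDL 1, BDL 2, sham 1 or sham 3 (adjusted p from 0.0656 to 0.112).

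The box H/ACA snoRNPs, which direct the conversion of uridine to pseudouridine and share their core proteins with telomerase, also had 3 of 4 genes called. This was again 75%, against 23.1% of genes with at least 10 CPM. Nhp2 had the largest fold change of the 45 members, 4.03-fold. It was measured at 13.3, 21.4 and 17.3 CPM in sham and at 72.55, 70.4, 50.7 and 71.5 CPM in BDL, with 3 BDL libraries almost level and BDL 3 below them (log2 fold change 2.01, SE 0.19, adjusted p = 0.000834). Of the annotated Nhp2 exon bases 25.1% are shared with Rmnd5b on the other strand, whose own values were 20.3 to 24.4 CPM in sham and 24.7 to 33.4 CPM in BDL (adjusted p = 0.0574). Gar1 went from 13.7, 16.6 and 14.0 CPM to 39.4, 37.05, 31.2 and 39.8 CPM (log2 fold change 1.34, SE 0.16, adjusted p = 0.00175). Dkc1, the pseudouridine synthase dyskerin, rose by 1.08 on the log2 scale (SE 0.23, adjusted p = 0.0144), and lost its call without sham 1 (0.052) or sham 3 (0.0542). Nop10, the smallest core protein and the most counted gene of the group, gave 49.9, 79.0 and 49.9 CPM in sham and 72.7, 71.67, 71.65 and 92.4 CPM in BDL. The groups overlapped through sham 2 (log2 fold change 0.38, SE 0.22, adjusted p = 0.257).

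In the processing of the small subunit 9 of 13 genes rose (69.2%) and none fell (median log2 fold change 0.67). Among genes with at least 10 CPM, 23.1% rose and 11.5% fell. Ltv1, an assembly factor of the pre-40S particle, had 21.4, 22.0 and 23.0 CPM in sham and 54.0, 59.1, 51.1 and 54.8 CPM in BDL. Both groups were tight (log2 fold change 1.32, SE 0.13, adjusted p = 0.000905). Noc4l, a nucleolar complex protein of small subunit assembly, went from 14.0, 11.9 and 11.3 CPM to 35.4, 33.5, 31.2 and 39.3 CPM (log2 fold change 1.47, SE 0.16, adjusted p = 0.00124). Bysl, a factor of pre-40S maturation, also rose over 2-fold (log2 fold change 1.19, SE 0.24, adjusted p = 0.012). The UTP subcomplex genes that load early on the nascent precursor moved less. Wdr75 had a log2 fold change of 0.94 (SE 0.17), Utp4 of 0.84 (SE 0.16), Utp18 of 0.67 (SE 0.19) and Utp15 of 0.61 (SE 0.17), with adjusted p from 0.00827 to 0.0436. Nat10, the rRNA cytidine acetyltransferase, and Nop14 passed the threshold narrowly, with log2 fold changes of 0.59 (SE 0.17, adjusted p = 0.0441) and 0.55 (SE 0.16, adjusted p = 0.0466).

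The most counted gene of the small subunit group, Wdr43, was not called. It had 56.7, 50.6 and 45.3 CPM in sham and 79.0, 92.2, 51.0 and 82.4 CPM in BDL, with BDL 3 inside the sham range (log2 fold change 0.59, SE 0.22, adjusted p = 0.095). Heatr1 (log2 fold change 0.71, SE 0.25, adjusted p = 0.0796), another early factor, was also not called. Without BDL 3 both were called, with adjusted p of 0.0198 for Wdr43 and 0.0361 for Heatr1. Utp20 (0.59, SE 0.28) and the GTPase-like factor Tsr1 (0.21, SE 0.26) complete the group, with adjusted p of 0.174 and 0.59. Tsr1 shares 34.2% of its exon bases with Srr and 14.9% with Sgsm2 on the other strand. Several of the smaller rises lost their call with 1 library fewer, with the direction kept. Leaving out 1 library ended the call of Nat10 whichever library it was (adjusted p from 0.0602 to 0.146), of Utp15 for all but BDL 3 (0.0507 to 0.123), and of Utp18 for all but BDL 3 and BDL 4 (0.0812 to 0.15). Nop14 lost it without BDL 1, BDL 2, sham 2 or sham 3 (0.116 to 0.145) and Utp4 without sham 1 (0.0588).

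In the processing of the large subunit 7 of 9 genes rose (77.8%) and none fell (median log2 fold change 0.96), while 23.1% of genes with at least 10 CPM rose. Pes1, Bop1 and Wdr12 form the PeBoW complex, which is needed to mature the RNAs of the large subunit, and all 3 rose to a similar extent. Bop1 had 21.9, 20.7 and 25.7 CPM in sham and 41.9, 48.3, 41.3 and 43.6 CPM in BDL (log2 fold change 0.96, SE 0.14, adjusted p = 0.00442). Pes1, the most counted gene of the group, had 47.1, 52.9 and 40.5 CPM in sham and 93.2, 99.3, 83.8 and 80.3 CPM in BDL (log2 fold change 0.95, SE 0.15, adjusted p = 0.00585). The log2 fold change of Wdr12 was 0.97 (SE 0.20, adjusted p = 0.0131), with an adjusted p of 0.0525 when sham 3 was left out and 0.05 when sham 1 was. Rrs1, which helps to bring the 5S RNA into the particle, went from 21.15, 25.9 and 28.3 CPM to 58.9, 62.7, 49.0 and 59.5 CPM, with no overlap (log2 fold change 1.24, SE 0.14, adjusted p = 0.00162). Rrs1 shares 39.4% of its exon bases with an antisense long non-coding gene, 2610203C22Rik, itself at only 1.19 CPM in sham and 0.700 CPM in BDL.

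Ftsj3, an rRNA methyltransferase homologue (log2 fold change 1.27, SE 0.23), Nop16 (1.04, SE 0.21) and Rrp1b (0.95, SE 0.19) rose as well, with adjusted p from 0.00884 to 0.0136. Nop16 lost its call without sham 1 (adjusted p = 0.0642) or sham 3 (0.0577), and Rrp1b without BDL 1 (0.0515). Nop2, an rRNA cytosine methyltransferase, had 23.2, 27.3 and 20.7 CPM in sham and 28.5, 31.7, 27.6 and 45.7 CPM in BDL. All ligated libraries were above all sham libraries, by little except in BDL 4 (log2 fold change 0.46, SE 0.22, adjusted p = 0.175). Noc3l, a chaperone of pre-60S export, was at 15.0, 12.7 and 13.8 CPM in sham and at 10.6, 14.1, 12.4 and 15.6 CPM in BDL. Its groups overlapped throughout (log2 fold change -0.10, SE 0.19, adjusted p = 0.736). For the summed share of all counts, the exact permutation p was 0.0286 for the MYC family, box H/ACA and large subunit groups. For the box C/D and small subunit groups it was 0.0571, although their shares did not overlap between sham and BDL either. The highest sham share was 0.0143% for box C/D and 0.0352% for the small subunit. The lowest BDL shares were 0.0203% and 0.0421%.

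The 4 BDL libraries did not carry the rise to the same extent. BDL 3 was the lowest of the 4 in 36 of the 45 members (80%), against 32.8% of genes with at least 10 CPM and 49.4% of such genes called higher. It was below the mean of the other BDL libraries in 44 of 45 members, by a median of 0.37 on the log2 scale. BDL 4 was the highest in 24 members and BDL 2 in 18, BDL 1 in 2 and BDL 3 in 1. The marker lists differed between the same libraries. BDL 3 had the highest shares of the 4 for acinar markers (5.03%), fibroblast markers (1.33%) and genes of the G2 and M phases (0.213%), and 0.00317% for hepatocyte markers. BDL 4 had the lowest shares of the first 3 lists (0.00227%, 1.13% and 0.184%) and the highest of hepatocyte markers (4.82%). Their part in the order of the libraries was not tested. Without BDL 1 and BDL 4, 23 members were called higher, as were 8.85% of all tested genes. Without BDL 2 and BDL 3 the values were 25 members and 8.53%, against 31 and 11.8% with all libraries. None of the members was called lower in either case.

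Genes around the members in the same pathway were counted in lists that did not include them. Of 36 other small subunit processing genes, 12 rose (33.3%, median log2 fold change 0.52), among them Tbl3 (1.07), Nop9 (1.23) and Pno1 (1.21). Of 42 other large subunit genes, 26 rose (61.9%, median 0.68). Eif6, which keeps the new large subunit from joining too early, averaged 76.2 CPM (SD 8.09, n = 3) under sham and 209 CPM (SD 35.4, n = 4) under BDL surgery, with a log2 change of 1.49. Las1l (1.11) and Rrp15 (1.06) also rose. Of 13 genes of the RNA exosome, which trims the precursor, 6 rose, including Exosc8 (1.35), Exosc9 (0.98) and the nuclease Dis3 (1.55). Of 12 transcripts that host snoRNAs in their introns, 5 rose, including Snhg3 (1.61), Snhg6 (1.68) and Snhg5 (0.92). None of the genes in these 4 lists fell, while among genes with at least 10 CPM 23.1% rose and 11.5% fell. Cytosolic ribosomal protein genes, the products for which the machinery is made, rose in 54 of 78 cases (median log2 fold change 0.77). Their summed share of counts was 0.832% ± 0.341 in sham (SD, n = 3) and 1.53% ± 0.126 in BDL (SD, n = 4; exact permutation p = 0.0286), and none of the 78 was called lower.

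**Figure D5:**
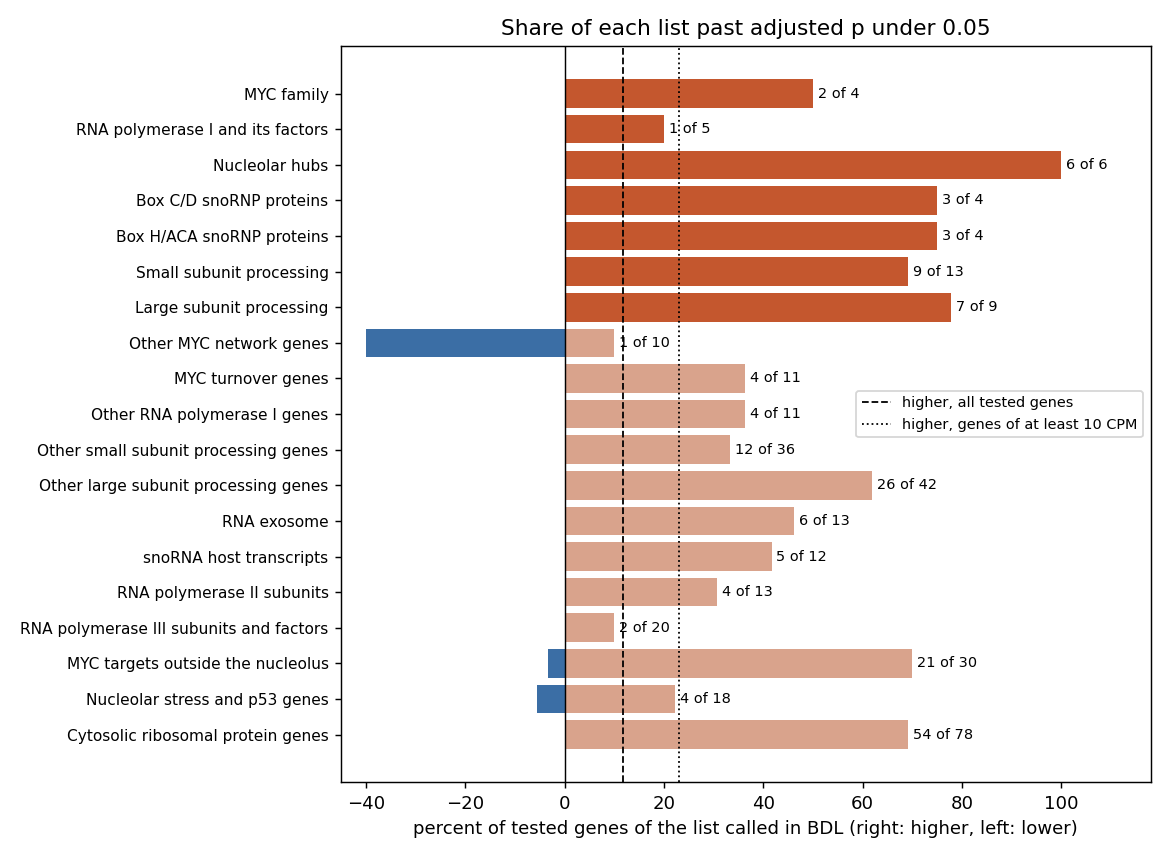
Percent of the tested genes of each list called higher (right) or lower (left, blue) in BDL, with the count of higher genes beside each bar; dark red marks the groups of members and light red the related lists. The dashed and dotted lines give the percent called higher among all tested genes (11.8%) and among those with at least 10 CPM (23.1%); 4 of 10 other MYC network genes were called lower.

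Targets ascribed to MYC outside the nucleolus rose in 21 of 30 cases and fell in 1 (median log2 fold change 1.05). The arginine methyltransferase Prmt1, whose substrates include fibrillarin, rose from 28.9, 42.6 and 34.3 CPM in sham to 133, 129, 105 and 91.1 CPM in BDL (log2 fold change 1.76, SE 0.15, adjusted p = 0.0007). The Ran regulator Ranbp1 (1.85) and the guanine nucleotide enzyme Impdh2 (1.33) rose too. Ccnd2, which encodes cyclin D2, went the other way, averaging 267 CPM under sham (SD 28.6, n = 3) and 46.9 CPM under BDL surgery (SD 11.5, n = 4; edgeR log2 fold change -2.51, SE 0.23, adjusted p = 0.000834). Blocked ribosome production is known to stabilise p53 through free Rpl5 and Rpl11. In a list of 18 genes of nucleolar stress and p53, 4 rose and 1 fell, which is 22.2% called higher against 23.1% of genes with at least 10 CPM. The risers were Rpl5 (1.62) and Rpl11 (0.71), which also belong to the ribosomal protein genes counted above, the cell cycle inhibitor Cdkn1a (1.86) and the apoptosis gene Bax (0.79), and the faller was the p53 target Ccng1 (-0.67). Cdkn1a had 27.9, 22.2 and 23.0 CPM in sham and 130, 87.2, 75.8 and 61.5 CPM in BDL, all ligated libraries above all sham libraries.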

How the data were processed

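Whole EHBDs of 3 sham and 4 BDL samples were profiled by bulk RNA-seq with the unstranded SMART-Seq mRNA kit and paired-end reads. Without strand, reads from exon bases shared with a gene on the other strand cannot be told apart. Such bases make up over 10% of the exon bases in 11 members. These are Bop1, Dkc1, Fbl, Ftsj3, Mycn, Nhp2, Nop16, Nop56, Rrs1, Tsr1 and Utp18. The authors estimated transcript abundance with Salmon against GENCODE release 33 on GRCm39 and summed it per gene, so the deposited values are estimated counts, stored as whole numbers. Columns were matched to samples by name. The 25209 genes whose counts summed to 10 or more entered a quasi-likelihood F test (edgeR 4.0.16, R 4.3.3) after TMM scaling; the model held surgery and sex and left 4 residual degrees of freedom. P-values were adjusted by Benjamini-Hochberg and called under 0.05. CPM are counts divided by the TMM-scaled library size, and the SE is the log2 fold change divided by the square root of F. Summed shares were compared by exact permutation. Symbols, exon lengths and start sites came from GENCODE release 39 on the same build, to which 55563 identifiers matched, and the other 502 hold 0.0335% of counts. No 2 libraries of a group agreed within sampling noise (chi-square per degree of freedom at least 202.3). Members, lists and tests were chosen with earlier results of these data known. Library values are printed for the MYC family, for the 2 members of each other role with the smallest p and for the member of each role with the highest mean CPM; values of Polr1a, Nop2, Noc3l, Mga, Prmt1 and Cdkn1a, and some names in the related lists, were added after they were seen. Alternatives were other scalings, filters, tools (DESeq2 1.42.0, limma 3.58.1), thinned counts, no sex term and libraries left out.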

Additional observations from a re-analysis of the deposited data

Results flagged for a closer look

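Library values were compared within the 4 BDL libraries of each of the 45 genes, and a single library stood apart in 2 of the 45 (chance alone would give about 1 in 20). Nhp2 was measured at 50.7 CPM (50.68) in BDL 3 while the other BDL libraries lay between 70.4 and 72.55 CPM. Nop10 was measured at 92.4 CPM in BDL 4 while the others lay between 71.65 and 72.7 CPM. The sham group, with 3 libraries, was not examined in this way.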

How the results depend on the processing

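The 31 members called higher became 15 when a rise of over 1.5-fold was itself tested (glmTreat in edgeR), and the percentage of all genes called higher went from 11.8% to 5.05%. Under the other settings the count stayed within 1.5 times: 32 with DESeq2, 30 with limma-voom, 28 with RLE and 27 with upper quartile scaling, and 31 with the acinar and hepatocyte markers left out, with filterByExpr, with no sex term, with thinned counts and with no filter (29 of them the same genes). Of all genes, 9.86% to 15.4% were called higher under these settings. Leaving out 1 library gave 21 to 32 members, with 21 without sham 1 or sham 3, and 6.82% to 12.8% of all genes. No member was called lower under any of the 19 alternatives, and 14 were called higher in all 19, among them Myc, Mycn, Ncl, Npm1, Fbl and Nhp2. Over single genes and alternatives, 83 comparisons lost a call, 6 gained one and 766 stayed on the same side of the threshold. In none did the sign change where either fit gave a call. Signs of members not called did change. The log2 fold change of Mycl went from -0.17 to 0.19 without sham 1, and that of Max from -0.05 to 0.18 without BDL 1 and 4. Upper quartile scaling shifted the median of all genes by -0.12 on the log2 scale. No paired analysis was possible because the labels give no replicate numbers shared by the groups. With 3 and 4 libraries, a p that misses the threshold does not show that a gene was unmoved.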
